A study of Mus musculus with 22 samples.

Results

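The genes described here are the neighbours of Trp53 on mouse chromosome 11, listed by name as genes that travel with a targeted Trp53 allele. The list holds 60 genes, and 59 of them had a probe on the array. Tnfsf13 was not analysed here. The 59 genes had 89 probes of the 56605 probes read, and 87 probes of 58 genes passed the test's filter, against 38957 probes in all. The Shbg probe and 1 Nlrp1b probe were not well above background on any array. In the order of protein-coding genes of GRCm38.p6, 18 members lie before Trp53 and 42 after it, from Pfas (23 genes before) to Xaf1 (99 genes after). The stretch also holds 62 other protein-coding genes. Trp53 itself is not described here.

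An allele targeted in embryonic stem cells is bred on together with the chromosome around it, so that neighbouring genes are inherited with the targeted locus more often than distant ones. In a carrier such neighbours may be of the stem cell strain, while littermate controls may carry the other strain's copies at the same place. A sequence difference between strains can alter a gene's RNA level, its splicing or how well a short array probe binds its RNA. The neighbourhood of Trp53 is dense with genes of unrelated roles, among them an apoptosis regulator, an inflammasome pair, a mitotic kinase, epidermal lipoxygenases and parts of the synapse.

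The study read RNA of 22 whole mouse bladders, each on 1 one-colour Agilent array. Levels below are log2 signals relative to the array's own 75th percentile of spots, so 0 is the brightness that 75% of spots stay under. All mice were 8 months old. In 19 of them the drinking water had held BBN, a nitrosamine that causes bladder cancer, for 24 weeks. The sources used here give neither the strain of the mice nor that of the stem cells.

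Of the groups without a mutant Trp53 allele, normal (3 arrays) were wild-type mice with neither tamoxifen nor BBN. Krt5-Cre (2 arrays) carried Krt5-CreERT2 and LSL-RFP, and Upk2-Cre (2 arrays) carried Upk2-CreERT2 and LSL-RFP, both with tamoxifen and BBN. These 4 arrays are called the Cre controls. CreERT2 is a recombinase that tamoxifen switches on, here in basal cells (Krt5 promoter) or luminal cells (Upk2 promoter), and LSL-RFP is a reporter that stays silent until the recombinase acts. The groups with an allele, called carriers (15 arrays), were 5. Trp53 het (3 arrays) had BBN but no Cre and no tamoxifen, and its titles give Trp53+/- while the genotype entry gives Trp53R270H/+. The activated mutants carried LSL-RFP, 1 driver and 1 mutant allele, with tamoxifen and BBN. With the Krt5 driver there were 3 arrays of R270H and 4 of R172H, and with the Upk2 driver 2 of R270H and 3 of R172H. The driver limits where the allele is recombined, but a carrier inherits the chromosome around the allele in all its cells. Later gains or losses of it were not measured. In whole bladders fewer cells of a type and less RNA per cell cannot be told apart.

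On each array 42.4% to 63.2% of spots were well above background, with 42.4% to 57.2% on scanner 1 and 56.3% to 63.2% on scanner 2. The 3 normal arrays were alone on slide 4, so for them slide and group cannot be told apart. The label's sex did not match the signals of Xist and 4 Y-linked genes on 11 of 22 arrays, among them all 3 normal and all 4 Krt5-Cre R172H arrays. A description code was shared by both Upk2-Cre arrays and by Trp53 het replicates 1 and 2, and nothing else says whether arrays came from separate mice, so p-values measure the spread between these samples. All 6 urothelial markers were above background in every group, and their summed level was 9.43 to 9.83 in normal and 7.86 to 9.95 with BBN. The normal samples are titled as urothelium, though the RNA is described as that of whole bladders. Smooth muscle markers summed to 5.04 to 5.96 in normal and 5.88 to 9.43 with BBN. Fibroblast markers summed to 8.57 to 8.89 in normal and 4.56 to 8.15 with BBN. Whether the same tissue was sampled in normal and BBN mice was not tested.

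Most members were readily measured. Of the 87 tested probes, 53 (43 genes) were well above background on all 22 arrays and 14 on under 11 arrays. Over the 19 BBN arrays a member probe had a median SD of 0.55, against 0.63 over all tested probes, and over the normal arrays 0.21 against 0.24. The widest members were Alox12b (SD 2.44), the Xaf1 probe A_55_P1966838 (2.36), Aloxe3 (1.94), the Dlg4 probe A_51_P302256 (1.42) and the Atp1b2 probe A_55_P2492258 (1.37). That Dlg4 probe was well above background on only 2 of the 22 arrays. Results below turn mainly on Xaf1 and the lipoxygenases. Differences are log2 differences between means of groups, with the standard error (SE) of the limma fit, and a probe is called where its p, adjusted by Benjamini-Hochberg over all 38957 probes, is at most 0.05.

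Xaf1 encodes XIAP-associated factor 1, which opposes the caspase inhibitor XIAP and is induced by interferon. It is the member farthest from Trp53 in gene order. It had 2 probes, A_55_P1966838 and A_55_P1966833, which the array assigns to the same RefSeq transcript. The stretch around its annotated start (chr11:72301379-72301678, GRCm38.p6, plus strand, 250 bases before to 50 after the start, from RefSeq) is shown because this gene carries the 1 call among members in a comparison of mutants with a Cre control. Capitals mark matches on either strand to AANNGAAA, the core bound by interferon regulatory factors, a pattern chosen after the letters had been read.
Xaf1 promoter: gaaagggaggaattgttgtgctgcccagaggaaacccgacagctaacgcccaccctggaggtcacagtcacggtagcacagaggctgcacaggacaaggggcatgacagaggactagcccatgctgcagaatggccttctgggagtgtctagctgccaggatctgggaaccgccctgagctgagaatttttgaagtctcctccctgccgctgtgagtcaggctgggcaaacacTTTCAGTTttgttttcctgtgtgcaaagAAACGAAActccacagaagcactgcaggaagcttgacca
The window holds 2 matches. AANNGAAA was found in 23.9% of 32851 RefSeq promoters of the same length, and in 15 of 66 promoters (22.7%) of the 46 members with one. The longer interferon-stimulated response element, whose every match also holds AANNGAAA, was in 3.44% of promoters, with 2 among members (Asgr2 and Cldn7) and none in the Xaf1 window. Of the other patterns searched on both strands, TTTGAA (17.9% of promoters, 8 of the members' 66) and TGANTCA (7.81%, 8 of 66) matched in the Xaf1 window, and CCAAT (37.4%, 21 of 66) did not. A match is a description of letters, not a site in use.

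The Xaf1 probe A_55_P1966838 was low in the Krt5-Cre mice and high in all other BBN mice. It read -4.35 and -4.00 in Krt5-Cre, and 2.56 and 0.77 in Upk2-Cre. In Trp53 het it read 1.95, 3.04 and 3.97. The activated mutants read 4.08, 2.92 and 0.62 in Krt5-Cre R270H and 0.15, 3.35, 2.79 and 2.73 in Krt5-Cre R172H. With the Upk2 driver they read 2.44 and 2.88 (R270H) and 3.31, 3.13 and 1.56 (R172H). Normal bladders read -5.17, -6.57 and -5.57. The low arrays are therefore the 3 normal and the 2 Krt5-Cre arrays, and the signal was not well above background on the normal arrays and on Krt5-Cre replicate 2. Upk2-Cre, which has no mutant allele either, lay within the range of the carriers. In the authors' deposited table the same probe is empty on those 4 arrays, stands at 5.01 on Krt5-Cre replicate 1 and lies between 9.44 and 13.2 on the others.

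**Figure D1:**
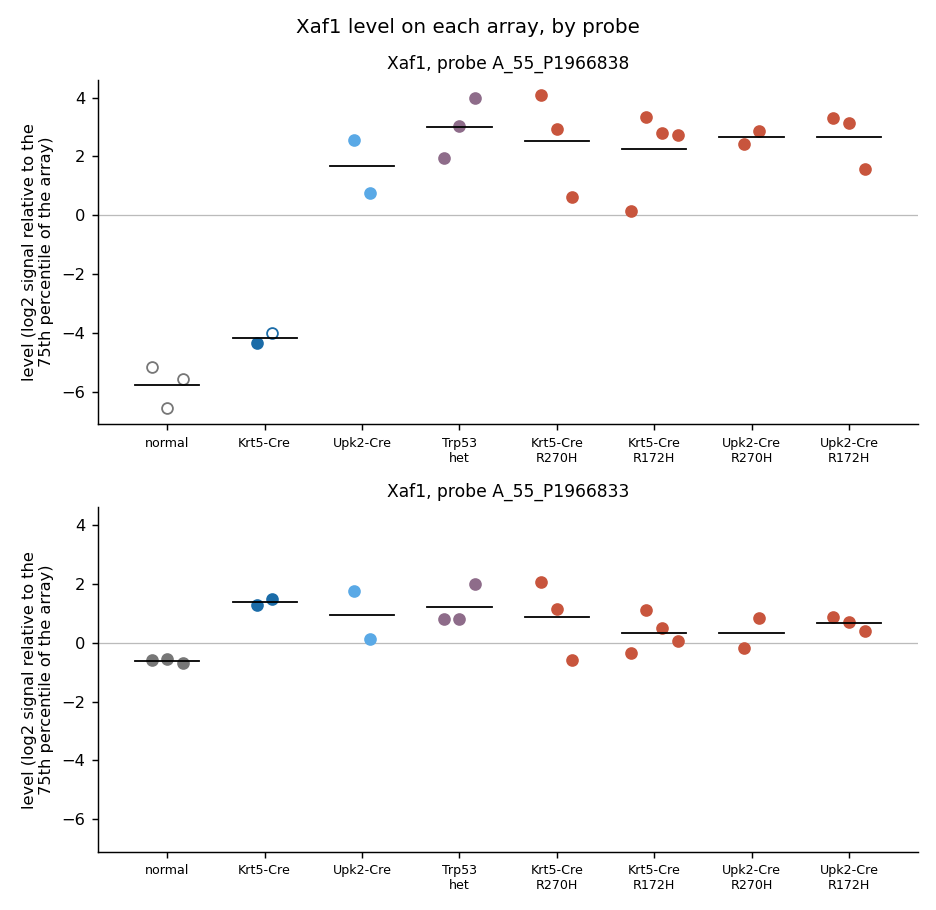
Level of Xaf1 on each array (y axis, log2 signal relative to the array's 75th percentile) in the 8 groups (x axis), for both probes. Each dot is an array (filled if well above background, open if not) and the bar is the group mean. The probe A_55_P1966838 is at -4.35 and -4.00 in Krt5-Cre, below every other BBN array, while A_55_P1966833 is at 1.27 and 1.49 there.

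Between Krt5 mutants (2.40 ± 1.44, SD, n = 7) and Krt5-Cre (-4.18 ± 0.24, SD, n = 2) this probe differed by 6.57 (SE 0.87, limma adjusted p = 0.0285), and the arrays did not overlap. This was the 1 call among the 87 member probes, and also the 1 call among all 38957 tested (0.00257%; 5 members and 1557 of all had an unadjusted p under 0.05). In the pooled comparison, with groups weighed alike, carriers stood at 2.62 and Cre controls at -1.26, a difference of 3.88 (SE 0.61, adjusted p = 0.0920) with overlapping arrays. Trp53 het differed from the Cre controls by 4.24 (SE 0.82, adjusted p = 0.391). Upk2 mutants differed from Upk2-Cre by 0.998 (SE 0.91, adjusted p = 0.991). The difference between the Krt5 and the Upk2 comparison was 5.58 (SE 1.26, adjusted p = 0.9997, unadjusted p = 0.000356), which does not pass. R270H and R172H differed by 0.14 (adjusted p = 0.969).

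The call in Krt5 mutants was close to the threshold. It was lost on leaving out any 1 of 11 arrays, namely normal 1 or 3, Krt5-Cre 1 or 2, Trp53 het 2, R270H 1 or R172H 3 or 4 of the Krt5 driver, or R270H 1 or 2 or R172H 2 of the Upk2 driver (adjusted p from 0.00365 to 0.222 over all 22 omissions), while the difference stayed between 6.19 and 7.05. Within slides it was 7.50 (slide 2) and 7.11 (slide 3). With slide as a block the pooled difference of carriers from Cre controls was 4.56 (adjusted p = 0.00587), and within slides it was 5.12 (slide 2) and 3.47 (slide 3). With the replicate number as a block the Krt5 difference was 6.61 (adjusted p = 0.258).

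Counted by non-overlap of single arrays, Krt5-Cre lay apart from the other 17 BBN arrays at 1 of 87 member probes, against 0.811% of all tested probes. That probe was A_55_P1966838. The same count for Upk2-Cre against the other BBN arrays gave 0 of 87 (0.706% of all).

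The second Xaf1 probe did not show this. A_55_P1966833 was well above background on all 22 arrays and read 1.27 and 1.49 in Krt5-Cre, 1.78 and 0.13 in Upk2-Cre, and 0.82, 0.80 and 2.01 in Trp53 het. It read 2.08, 1.14 and -0.58 in Krt5-Cre R270H and -0.36, 1.13, 0.50 and 0.06 in Krt5-Cre R172H. Krt5-Cre was among the higher groups on this probe, with carriers on both sides of it. Krt5 mutants differed from Krt5-Cre by -0.78 (SE 0.57) and carriers from Cre controls by -0.48 (SE 0.40), with neither called. Its carrier difference was 0.70 on slide 2 and -0.96 on slide 3. In carriers against Cre controls the 2 probes' differences lay 4.36 apart as measured. With Krt5-Cre replicate 2 raised to that array's lowest signal well above background, A_55_P1966838 differed by 3.57 there, and by 5.96 between Krt5 mutants and Krt5-Cre. The median gap between probes of a gene was 0.20 over the 26 members and 0.23 over all 6263 genes with at least 2 tested probes, and a gap over 1 was seen in 1 member and in 2.54% of all genes.

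Interferon response genes were measured beside Xaf1. Their summed level (7 genes) was 3.23 to 3.55 in normal, 6.85 to 7.28 in Krt5-Cre, 5.54 to 6.93 in Upk2-Cre and 5.28 to 8.42 in carriers. In Krt5-Cre, where A_55_P1966838 was low, this list was thus within the carriers' range. Between Krt5 mutants and Krt5-Cre 0 of 7 were called (limma), with a median difference of -0.56.

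Nlrp1a and Nlrp1b, sensors that start the inflammasome and neighbours of Xaf1, were the other members tied to cell death. The bright Nlrp1a probe A_55_P1955998 read 4.66 and 5.97 in Krt5-Cre and 6.59 and 5.93 in Upk2-Cre, and carriers ran from 4.66 to 7.15 around them. The groups overlapped. The 6 probes of Xaf1, Nlrp1a and Nlrp1b together ran from -0.48 to 3.88 in carriers against Cre controls, with a median of 0.32.

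Across all members few values stood apart between carriers and Cre controls. In carriers against Cre controls limma called 0 of 87 member probes (0% of all tested), while 4 members and 2150 of all probes had an unadjusted p under 0.05. Their differences ran from -3.57 to 3.88 with a median of 0.05, against 0.00 over all probes. The middle of the members lay between -0.15 and 0.22 (quartiles), and that of all probes between -0.22 and 0.22. Of the members, 46 probes were above 0 and 41 below, and 73 of 87 (83.9%) were within 0.5 of 0, against 81.7% of all probes. Counted by array, carriers and Cre controls did not overlap at 0 of 87 members (0.0796% of all).

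Both sides of Trp53 had like medians. The 21 probes before Trp53 had a median of 0.05 in carriers against Cre controls and the 66 probes after it 0.04. Of the 84 probes of other genes in the same stretch that were tested, 0 were called in that comparison.

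**Figure D2:**
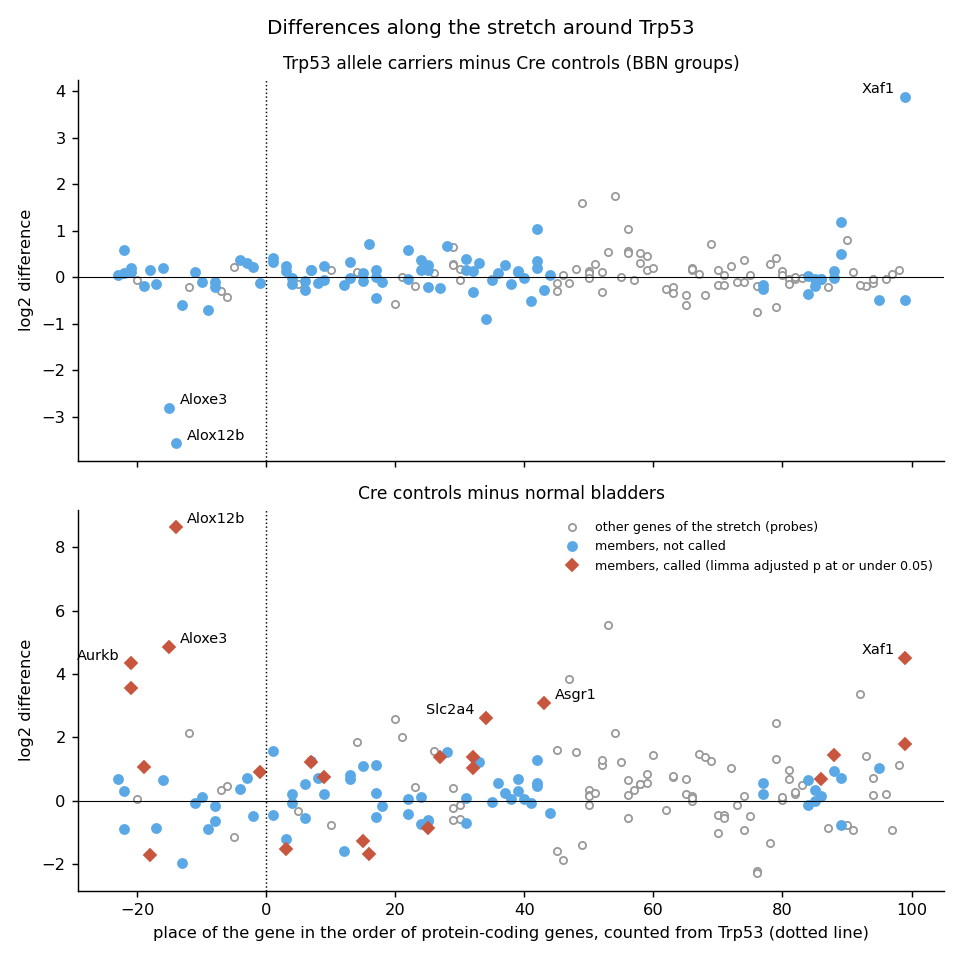
Log2 difference of each tested probe (y axis) by the place of its gene in the order of protein-coding genes counted from Trp53 (x axis), for carriers minus Cre controls (top) and Cre controls minus normal (bottom). Red diamonds are member probes called by limma, blue points other member probes and open grey points other genes of the stretch; the top panel has 0 called members and the bottom 22.

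Other single comparisons gave no further call among members. Upk2 mutants against Upk2-Cre had 0 of 87 (0% of all; 2 members and 2080 of all at an unadjusted limma p under 0.05). Trp53 het against the Cre controls had 0 (0% of all; 6 members and 1554 of all), a comparison in which Cre, tamoxifen and LSL-RFP differ along with the allele and cannot be told apart from it. The Krt5 comparison less the Upk2 comparison had 0 (0% of all; 3 members and 1199 of all). R270H against R172H had 0 (0.00257% of all; 8 members and 3705 of all). The members' median differences in these comparisons were -0.02, 0.04, 0.06 and -0.02 in the order given, against -0.05, 0.05, 0.05 and 0.01 over all probes. In Krt5 mutants against Krt5-Cre they were 0.11 and 0.01.

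The genes next to Trp53 showed no difference between carriers and Cre controls beyond its SE. Wrap53 overlaps Trp53 head to head and encodes a protein that guides telomerase and other small RNPs to Cajal bodies. It read 1.73 and 2.32 in Krt5-Cre, 2.26 and 2.29 in Upk2-Cre, and 1.92, 2.69 and 2.60 in Trp53 het. In the activated mutants it ran from 1.46 to 2.89. Carriers and Cre controls overlapped and differed by -0.11 (SE 0.24), though the Upk2 mutants, at 1.46 to 2.24, all lay just under the 2 Upk2-Cre arrays. Upk2 mutants lay wholly below Upk2-Cre at 5 of 87 members and 7.95% of all probes.

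Atp1b2, on the other side, encodes a beta subunit of the sodium pump found in glia and neurons. Its brighter probe A_55_P2492258 read 0.51 and -2.68 in Krt5-Cre, -2.75 and -2.39 in Upk2-Cre, and from -3.58 to 0.95 in carriers. High and low arrays were found in both classes, and the differences of its 2 probes were 0.34 (SE 0.64) and 0.41 (SE 0.56). Sat2, a polyamine acetyltransferase homologue, differed by 0.14 (SE 0.39) and 0.25 (SE 0.34) on its 2 probes. Fxr2, an RNA-binding relative of the fragile X protein, differed by -0.14 (SE 0.33) and -0.01 (SE 0.20). Its bright probe A_55_P1969166 stayed between 2.67 and 3.99 on all 22 arrays. Shbg, the carrier of sex steroids in blood, was not well above background on any array.

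Ctc1, a chromosome-end protein, made up the rest of that role. The 3 probes of Wrap53 and Ctc1 ran from -0.11 to 0.58 in carriers against Cre controls. The highest was the dim Ctc1 probe A_55_P2739288, above background on 8 of 15 carrier and 2 of 4 control arrays.

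Alox12b and Aloxe3 were the members lowest in value in carriers against Cre controls. These lipoxygenases act one after the other on linoleate-bearing ceramides to build the skin barrier and mark cornifying squamous epithelium. Alox12b read 1.04 and 3.18 in Krt5-Cre, 1.69 and 3.96 in Upk2-Cre, and -1.40, -2.54 and -1.68 in Trp53 het. It read -0.27, 0.90 and 1.50 in Krt5-Cre R270H and 1.20, 1.69, -5.32 and -4.14 in Krt5-Cre R172H. With the Upk2 driver it read -1.55 and -0.10 (R270H) and -3.30, -0.91 and -1.42 (R172H). All Cre controls were above all Trp53 het and all Upk2 mutants, while some Krt5 mutants reached the Cre controls. Carriers differed by -3.57 (SE 1.03, adjusted p = 0.507), Trp53 het by -4.34, and Upk2 mutants from their own control by -4.18 (adjusted p = 0.924).

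Aloxe3 read -0.36 and 2.12 in Krt5-Cre and -0.45 and 2.19 in Upk2-Cre. Trp53 het, at -3.27, -5.06 and -2.71, lay wholly below them, and the activated mutants ran from -3.51 to 1.06 and overlapped them. Carriers differed from Cre controls by -2.81 (SE 0.77, adjusted p = 0.458), and Trp53 het by -4.55 (SE 1.04, adjusted p = 0.719). Neither gene passed in these comparisons. With slide as a block both did, at -4.95 (adjusted p = 0.00585) for Alox12b and -3.62 (adjusted p = 0.0351) for Aloxe3, and with scanner as a block at -3.97 (adjusted p = 0.0398) and -3.09 (adjusted p = 0.0401). Within slides the differences were -4.47 and -4.12 for Alox12b and -5.07 and -1.96 for Aloxe3 (slides 2 and 3). Alox8, the other lipoxygenase among the members, differed by -0.59 (SE 0.63), but was above background on 5 arrays only.

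Squamous markers were likewise lower in value in carriers than in Cre controls. The summed level of 7 squamous markers was 7.22 to 9.14 in the Cre controls, 5.35 to 6.30 in Trp53 het, 4.13 to 8.74 over all carriers and 3.72 to 4.30 in normal. In carriers against Cre controls 0 of the 7 were called (limma), with differences from -3.41 to -0.87 and a median of -1.99. Their part in the lipoxygenase differences was not tested.

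**Figure D3:**
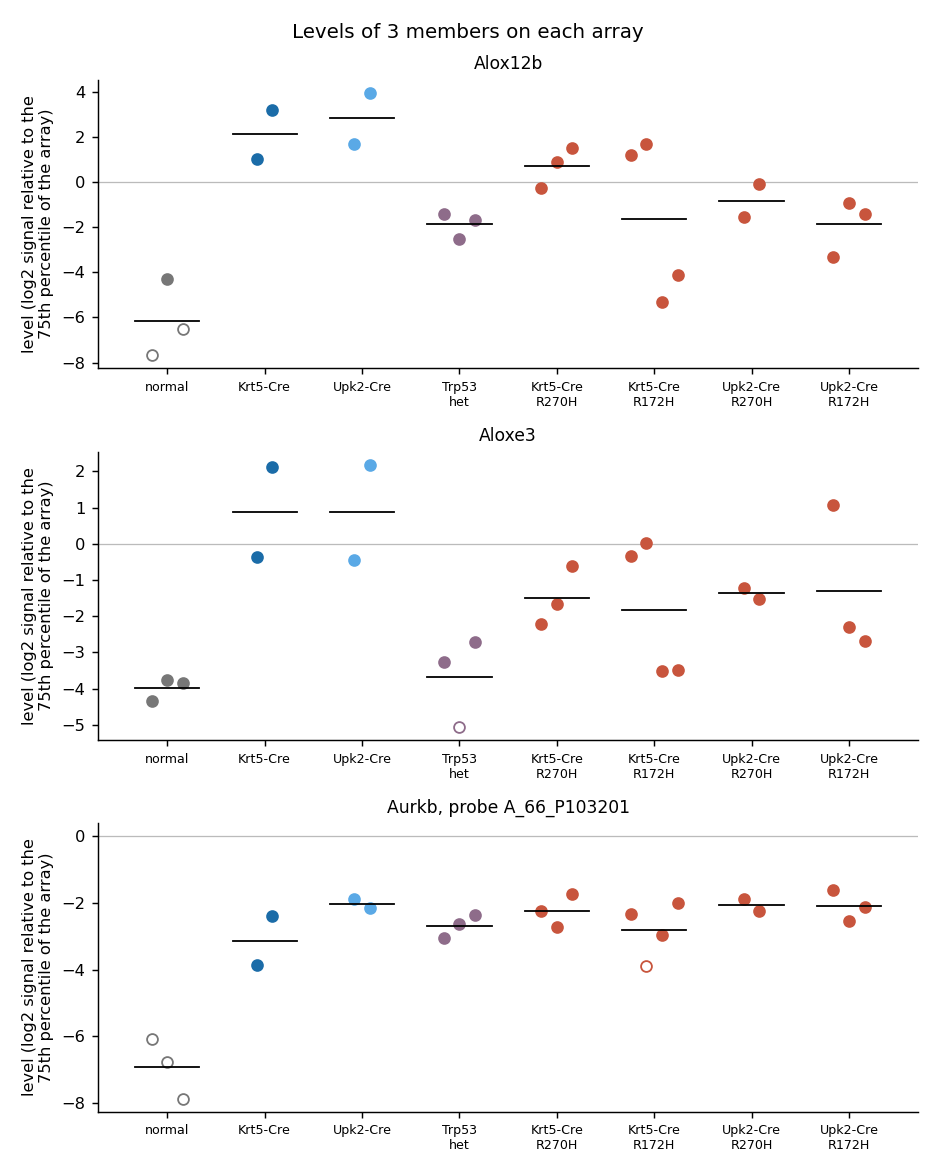
Levels of Alox12b, Aloxe3 and the Aurkb probe A_66_P103201 on each array (y axis, log2 signal relative to the array's 75th percentile) in the 8 groups (x axis); each dot is an array (filled if well above background, open if not) and the bar is the group mean. For Alox12b the 4 Cre controls lie between 1.04 and 3.96 and Trp53 het between -2.54 and -1.40, and for Aurkb the 3 normal arrays lie at or below -6.09.

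Acadvl, the first enzyme of mitochondrial oxidation of very long fatty acids, had the next smallest p in the pooled comparison. It read 4.56 and 4.56 in Krt5-Cre, 4.30 and 4.67 in Upk2-Cre and 4.07, 4.18 and 4.39 in Trp53 het. The Krt5 mutants ran from 3.64 to 4.35 and the Upk2 mutants from 3.82 to 4.25, each below its own Cre control on every array. Such non-overlap of Upk2 mutants with Upk2-Cre was seen at 8 of 87 members and 13.7% of all probes. The pooled difference was -0.50 (SE 0.17, adjusted p = 0.605), with -0.65 in Krt5 and -0.45 in Upk2 mutants. None of these passed.

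Kdm6b, a histone H3 lysine demethylase, was higher in value in Krt5 mutants. It read 0.38 and 0.68 in Krt5-Cre and from 0.99 to 2.27 in the Krt5 mutants, with no overlap. Krt5 mutants and Krt5-Cre did not overlap at 5 of 87 members (Xaf1, Kdm6b, Acadvl, Per1 and Cldn7), against 2.98% of all probes. The difference was 0.89 (SE 0.30, adjusted p = 0.9999). In Upk2-Cre it read 1.39 and 0.89, and in Upk2 mutants from 0.43 to 1.49, overlapping. The difference between the drivers was 1.01 (adjusted p = 0.9997). Dnah2, an axonemal dynein heavy chain, had a difference of 1.67 in Upk2 mutants (adjusted p = 0.935), but its probe was above background on only 5 of 22 arrays.

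Tnk1, a non-receptor tyrosine kinase, was higher in value in Trp53 het. On the probe A_55_P2500643 Trp53 het read 0.73, 1.23 and 1.04, against -0.25 and 0.35 in Krt5-Cre and 0.24 and 0.56 in Upk2-Cre. On A_52_P167411 it read 1.84, 1.78 and 2.01, against 0.99, 1.35, 1.29 and 1.40. Both probes thus put all 3 Trp53 het arrays above all Cre controls. Such non-overlap was seen at 6 of 87 members, namely 2 probes of Tnk1 and Chrnb1 (higher) and Alox12b, Aloxe3 and Slc2a4 (lower), against 4.65% of all probes. The differences were 0.78 (SE 0.23, adjusted p = 0.940) and 0.62 (SE 0.27, adjusted p = 1), and within slides 0.68 and 0.74 for the former (slides 2 and 3). The third probe, A_66_P127841, differed by 0.00. On A_52_P167411 Trp53 het also lay above all 12 activated mutants, by a gap of 0.01, at 1 of 87 members against 0.144% of all probes.

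Between the alleles, the members of smallest p were Atp1b2, Slc2a4 and Fgf11, none of them called. R270H is a change of a residue that touches DNA, and R172H one that unsettles the fold of p53, in the mouse's numbering. The Atp1b2 probe of smallest p, A_66_P117392, differed by 2.01 (SE 0.59, adjusted p = 0.301), but it was above background on 1 of 5 R270H and 0 of 7 R172H arrays, and within slide 1, which holds both alleles, it differed by 0.34. Its brighter probe A_55_P2492258 read 0.25, 0.85, -1.79, -2.30 and 0.95 in the R270H mutants and -3.58, -1.40, -1.27, -1.82, -2.20, -1.37 and -3.16 in the R172H mutants. R270H held the 3 highest arrays, and the other R270H arrays lay among the R172H arrays. The difference was 1.68 (SE 0.67, adjusted p = 0.452), and within slide 1 it was 1.45. Slc2a4, the insulin-regulated glucose transporter of muscle and fat, read 2.67, 2.68, 0.43, 0.65 and 2.53 in R270H and from -0.38 to 1.45 in R172H. It differed by 1.41 (SE 0.46, adjusted p = 0.352) over all arrays but by 0.01 within slide 1. Fgf11, an intracellular FGF homologue that binds sodium channels, differed by 0.77 (SE 0.26, adjusted p = 0.363) on A_55_P2316612 and by 0.05 within slide 1. Slide 1 held R270H arrays of both drivers but R172H arrays of the Krt5 driver only. The differences within it therefore mix allele with driver.

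Nlgn2, a postsynaptic adhesion protein of inhibitory synapses, differed by 0.74 on A_55_P1960989 and by -0.70 on the dim probe A_66_P116471. The dim probe was above background on only 4 arrays of the study, none of them R270H, so the opposite sign rests on signals near background. No member array set was free of overlap between R270H and R172H (0 of 87, against 0.613% of all). The summed level of 4 nerve and Schwann cell markers was 1.17 to 2.81 in the R270H and -0.40 to 1.22 in the R172H mutants. That of 4 skeletal muscle markers was 1.53 to 3.51 in R270H and 0.31 to 3.97 in R172H. That of 5 smooth muscle markers was 6.78 to 9.41 in R270H and 5.88 to 7.43 in R172H, with 0 of 5 called by limma and a median difference of 2.31. That of 4 adipocyte markers was -1.64 to 3.62 and -1.63 to 3.07. Their part in these differences was not tested.

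Grouped by role, the members' medians in carriers against Cre controls lay between -0.18 and 0.32 apart from the lipoxygenases. The 15 probes of transcription and chromatin genes (Polr2a, Zbtb4, Kdm6b, Chd3, Phf23, Gps2, Per1, Hes7, Senp3) ran from -0.20 to 0.39 with a median of 0.12. The 9 probes of translation and RNA genes (Eif4a1, Eif5a, Fxr2, Ybx2, Dhx33, Elp5) ran from -0.35 to 0.32. The 5 probes of mitosis and centrosome genes (Aurkb, Mis12, Cntrob) ran from -0.03 to 0.20.

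The 13 probes of membrane traffic and junction genes (Cldn7, Gabarap, Trappc1, Derl2, Kif1c, Acap1, Ctdnep1, Tmem102, Tmem107, Plscr3) ran from -0.26 to 0.67 with a median of -0.10. The 10 probes of metabolism and transport genes (Sat2, Mpdu1, Slc2a4, Acadvl, Pfas, Asgr1, Asgr2, Txndc17) ran from -0.90 to 0.25, with Slc2a4 the lowest. The 14 probes of synapse and muscle genes (Atp1b2, Chrnb1, Nlgn2, Dlg4, Efnb3, Kcnab3, Vamp2, Fgf11) had the widest range after Xaf1 and the lipoxygenases. They ran from -0.70 to 1.03, and the low end was the dim Kcnab3 probe, above background on only 5 arrays of the study. The TNF ligand Tnfsf12 and the macrophage protein Cd68 ran from -0.16 to 0.16 on 3 probes. The 6 probes of signalling and cilia genes (Tnk1, Kctd11, Dvl2, Dnah2) ran from -0.23 to 0.31.

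**Figure D4:**
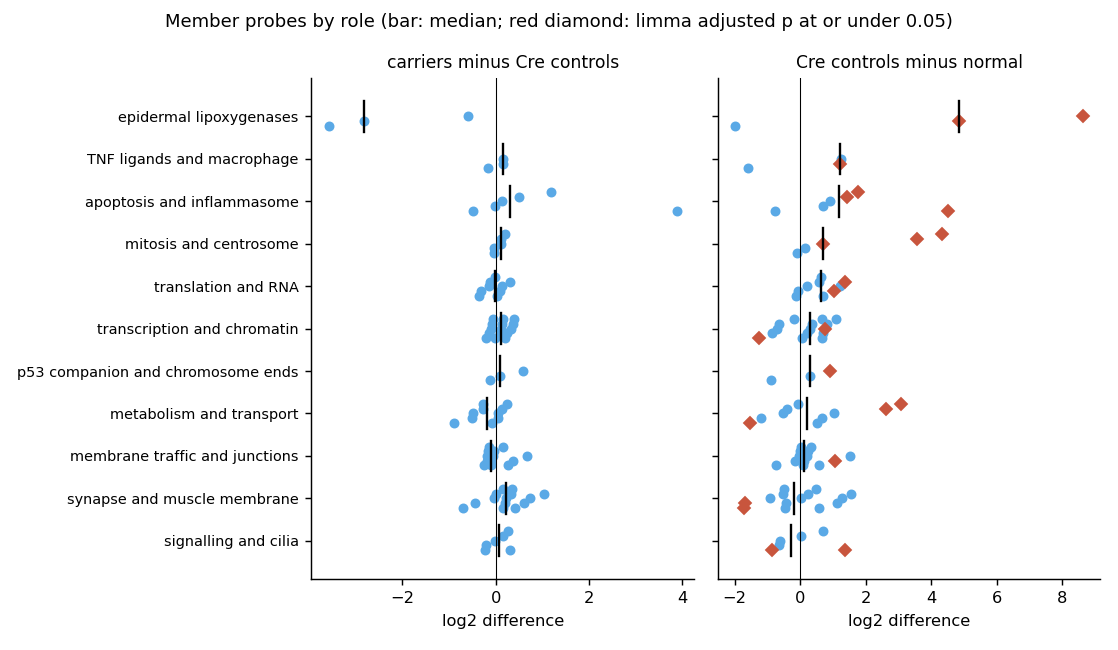
Log2 differences of the 87 tested member probes grouped by role, for carriers minus Cre controls and Cre controls minus normal; each dot is a probe and the bar is the median of the role. In carriers minus Cre controls the lipoxygenases have a median of -2.81 and the other roles medians between -0.18 and 0.32, while in Cre controls minus normal the lipoxygenases are at 4.86.

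More members were called between BBN-treated and normal bladders, with no mutant Trp53 allele on either side when the Cre controls are used. The Cre controls also had tamoxifen, CreERT2 and LSL-RFP, which normal mice lacked, and the normal arrays were alone on slide 4. These cannot be told apart from BBN here. Against normal, 22 of 87 member probes (25.3%) of 19 genes were called in the Cre controls, 17 higher (17.8% of all) and 5 lower (13.6% of all), a share below the 31.3% of all tested probes called. The members' median difference was 0.31, against 0.15 over all probes. In the other genes of the stretch 15 of 84 probes (17.9%) were called. Quantile normalization, which moved the median of all probes by -0.23, gave 14 higher and 6 lower members, and 4975 higher and 6062 lower probes in place of 6919 and 5281.

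Aurkb, the kinase of the chromosomal passenger complex that corrects chromosome attachment in mitosis, rose on both of its probes. The probe A_66_P103201 read -6.09, -6.78 and -7.88 in normal, where it was not well above background. It read -3.87 and -2.39 in Krt5-Cre, -1.89 and -2.15 in Upk2-Cre, and from -3.91 to -1.60 in carriers. Every BBN array read above every normal array, as was seen at 14 of 87 members and 13.6% of all probes. The lowest BBN array, Krt5-Cre R172H replicate 2, was not well above background either. The Cre controls were at least 7.04-fold higher than normal (measured difference 4.34, limma adjusted p = 1.757e-05) and the carriers at least 8.11-fold. Such a bound sets the brighter group against the lowest signal still well above background on the dim arrays. On the other probe, A_55_P2884008, the differences were 3.56 (adjusted p = 7.551e-05) and 3.68. Mis12, a kinetochore subunit, also rose on A_51_P418317, by 0.69 (adjusted p = 0.0320). Its other probe, A_55_P2649909, was not called, with -2.55, -2.69 and -2.60 in normal and -2.78, -2.51, -2.38 and -2.25 in the Cre controls. The summed level of 7 cell cycle markers was 0.44 to 0.65 in normal, where Bub1 was never above background, 4.05 to 5.55 in the Cre controls and 4.10 to 6.43 in carriers.

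Alox12b and Aloxe3 rose from normal to the Cre controls by 8.64 (SE 1.40, adjusted p = 0.000346) and 4.86 (SE 1.04, adjusted p = 0.00260). In normal bladders Alox12b read -7.67, -4.31 and -6.53, with 1 of 3 arrays above background. With the other 2 raised to their lowest signal well above background the difference was 7.59, and 4.02 for carriers. Aloxe3 read -4.35, -3.75 and -3.85. Carriers still stood 5.06 above normal for Alox12b (adjusted p = 0.00284) and 2.05 for Aloxe3, which was not called. Alox8 fell from normal to carriers (measured log2 difference -2.57, adjusted p = 0.00929), but it was above background on 1 of 15 carrier arrays against 3 of 3 normal arrays, and the difference was -0.78 with the dim arrays raised to their lowest signal well above background.

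Both Xaf1 probes rose as well. A_55_P1966833, at -0.59, -0.54 and -0.69 in normal, was 1.78 higher in the Cre controls (SE 0.55, adjusted p = 0.0207) and 1.29 higher in carriers (adjusted p = 0.0321). A_55_P1966838 was at least 16.4-fold higher in the Cre controls (adjusted p = 0.000872), a mean of low Krt5-Cre and high Upk2-Cre arrays, and at least 241-fold higher in carriers (adjusted p = 4.315e-07). Of the 7 interferon response genes 4 were higher in the Cre controls, with a median of 2.59. Nlrp1a rose by 1.44 (adjusted p = 0.0413) on A_55_P1955998, from 4.28 to 4.45 in normal to 4.66 to 6.59 in the Cre controls. The dim Nlrp1a probe was not called.

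Other members that rose in the Cre controls had roles in uptake, translation and signalling. Slc2a4 read -1.15, -0.23 and -0.92 in normal and 3.46, 1.78, 1.13 and 1.04 in the Cre controls, a rise of 2.62 (SE 0.59, adjusted p = 0.00370). The summed smooth muscle markers stood at 5.04 to 5.96 in normal and 7.21 to 9.43 in the Cre controls, and the adipocyte markers at -2.24 to -1.32 and -0.61 to 0.51, and their part was not tested. Asgr1, a subunit of the asialoglycoprotein receptor, was not well above background in normal and was at least 4.28-fold higher (adjusted p = 0.00164). Kctd11, a cullin adaptor that restrains Hedgehog signalling, rose by 1.38 (adjusted p = 0.00688). Eif5a, the hypusine-bearing elongation factor and the brightest of these, rose on both probes, by 1.38 (adjusted p = 0.0110) and 1.02 (adjusted p = 0.0140). Cd68 rose by 1.20 (limma adjusted p = 0.0274) on A_55_P1961943. Its other probe, A_51_P120470, was higher in value by 1.26 and was not called. The macrophage marker list had 0 called genes and a median of -0.34, and its summed level was 3.87 to 4.53 in normal and 3.66 to 4.58 in the Cre controls. Wrap53 rose by 0.91 (adjusted p = 0.0395), with 1.14, 1.54 and 1.03 in normal and 1.73, 2.32, 2.26 and 2.29 in the Cre controls. Tmem107 and the Senp3 probe A_55_P2070054 rose by 1.07 and 0.76. The other Senp3 probe, A_55_P1986386, was not called, and the differences of the Senp3 probes lay 0.56 apart.

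Of the 5 members that fell, 2 belong to synapse and muscle. Vamp2, a vesicle SNARE of nerve endings, read 1.40, 1.53 and 1.70 in normal and 0.54, -0.24, -0.75 and -0.25 in the Cre controls, and fell by 1.72 (SE 0.46, adjusted p = 0.0107). Chrnb1, a subunit of the muscle acetylcholine receptor, fell by 1.69 (adjusted p = 0.0143). The nerve and Schwann cell markers had a summed level of 7.38 to 7.95 in normal and 0.05 to 1.69 in the Cre controls, with S100b never above background in Upk2-Cre. The skeletal muscle markers stood at -0.34 to 0.50 and 0.52 to 3.71. Their part in both members was not tested.

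Zbtb4, a zinc finger protein that binds methylated DNA, fell by 1.26 (SE 0.29, adjusted p = 0.00395) on A_51_P108131, where normal read 2.75, 2.91 and 2.74 and the Cre controls 2.40, 1.42, 1.05 and 1.29. Its other probe, A_66_P120312, was higher in value by 1.103 (adjusted p = 0.0682), so its probes disagreed. Tnk1 fell by 0.86 (adjusted p = 0.0217) on A_52_P167411, and its other probes were lower by values that did not pass. Sat2 fell by 1.54 (limma adjusted p = 0.0188) on the dim probe A_55_P2345425, above background on 1 of 4 Cre control arrays. Its brighter probe, A_51_P498152, was lower in value as well but was not called. Its group means were -0.55 in normal, -1.69 in Krt5-Cre and -1.82 in Upk2-Cre.

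Some calls against normal depended on how background and slide were handled. With normexp background correction Chrnb1 differed by -0.12 (adjusted p = 0.840) and Sat2 A_55_P2345425 by 0.19, so that neither call held, and Aurkb A_66_P103201 and Asgr1 were still called at smaller differences of 1.89 and 1.48. With slide as a random block the calls of Xaf1 A_55_P1966833 (adjusted p = 0.0903), Chrnb1 (0.0541), Sat2 A_55_P2345425 (0.0614) and Tnk1 A_52_P167411 (0.0647) were lost. Sat2 and Tnk1 were also lost with scanner as a block.

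In carriers against normal 35 of 87 member probes (40.2%) of 30 genes were called, 26 higher (22.5% of all) and 9 lower (16.7% of all), near the 39.2% of all tested probes and the 33 of 84 (39.3%) of the other genes in the stretch. This comparison shares the normal arrays with the previous one, so the counts are not independent. BBN, slide, the allele and, in the activated mutants, tamoxifen, Cre and LSL-RFP likewise cannot be told apart in it. Under quantile normalization the members split into 23 higher and 11 lower, and all probes into 6193 and 7409 in place of 8757 and 6511. Acadvl fell by 0.58 and Kdm6b rose by 0.73 in carriers, both called here. Over single arrays, all 19 BBN arrays lay apart from the 3 normal arrays at 16 of 87 members, 14 higher and 2 lower, against 23.5% of all probes (13.6% higher and 9.91% lower).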

How the data were processed

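RNA of 22 bladders was read on one-colour Agilent arrays. Per the file headers, spot intensities were made with Feature Extraction 11.0.1.1, which subtracts background and removes spatial trends, on a design of build mm9; the submitters' processing notes name version 9.1. The log2 values of the deposited table were normalized between arrays by the authors, in steps not given in the sources used here, and served as an alternative; limma is named without a version, per the submitters' processing notes.

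Each array's log2 processed intensity, minus its 75th percentile, was used. Outlier spots were left out and spots of a probe averaged. A probe's accession was matched to RefSeq (GRCm38.p6), giving 1 symbol to 32994 of 56605 probes and none to 23611. Probes well above background on at least 2 of 22 arrays were tested (38999, less 42 with a missing value), each apart from the others. limma 3.58.1 in R 4.3.3 fitted 8 group means over all 22 arrays, with groups of a side weighed alike, and p-values were adjusted over all tested probes at 0.05. No spot was saturated. Tables and plots were made with pandas 2.3.3, numpy 2.4.6 and matplotlib 3.10.9 under Python 3.11.15. The fit was tested on simulated data. A list's summed level is the log2 of its genes' added relative signals.

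Probes given in full are those called between carriers and Cre controls or between alleles, both Xaf1 probes, the genes next to Trp53, the 3 of smallest p where none was called, and the 8 highest and 8 lowest called against normal. The brighter Atp1b2 probe and the second Tnk1 probe, Acadvl, Nlgn2, Nlrp1a, Mis12, Kctd11, Eif5a, Cd68, Tmem107, Senp3 and the dim Ctc1 probe fall outside this rule and were chosen after their values were seen. The members and lists were chosen with earlier results of these data known. The array number limits the precision. Alternatives were normexp (offset 50), quantile normalization, the deposited table, no or a strict filter, the brightest probe of a gene and only the groups compared. Others were equal weights, the label's sex as a covariate (the sex covariate) and blocks for replicate number, scanner and slide. The last were averaging by description code and leaving out each array. Values with dim arrays raised to their lowest signal well above background were added after seeing the data. Arrays matching their sex label were an alternative chosen after seeing the data. They held no normal and no Krt5-Cre R172H array, so the Krt5 mutants in that setting were R270H only. Of Upk2-Cre they held only replicate 1, and of Upk2-Cre R172H only replicate 3. Replicate numbers did not pair the samples.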

Additional observations from a re-analysis of the deposited data

Results flagged for a closer look

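Single arrays were compared with the rest of their group in Krt5-Cre R172H only (4 arrays), and the other groups were not examined. Of the named member probes, 1 had an array there far from the rest. The Tnk1 probe A_55_P2500643 read 0.11 in Krt5-Cre R172H replicate 2, while the other 3 arrays of that group lay between 0.56 and 0.61. The gap to the nearest array was 0.90 of the group's range. Among 23 probes examined this way, chance alone gives such a flag in about 1 of 20 groups.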

How the results depend on the processing

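Counts of called members held within 1.5 times under most settings, and the cause of the exceptions was not tested. In carriers against Cre controls the count was 0, and 1 with quantile normalization, 3 with slide as a block, 3 with scanner as a block and 1 with the brightest probe of a gene. In Krt5 mutants it was 1, and 0 with normexp, the deposited table, no filter, the strict filter (which drops the Xaf1 probe A_55_P1966838), only the groups compared, the replicate block and arrays matching their sex label. Against normal the Cre controls gave 22, and 12 with slide as a random block, and the carriers 35, with 12 under slide as a random block, 18 under scanner as a block and 20 with sex as a covariate. Leaving out each array gave 0 to 1 (carriers against Cre controls), 0 to 1 (Krt5), 0 to 0 (Upk2, Trp53 het, R270H against R172H and the driver difference), 12 to 29 (Cre controls against normal, 12 without normal 1 or normal 3) and 16 to 40 (carriers against normal, 16 without normal 1 and 17 without normal 3). Same-numbered replicates had a mean correlation of 0.04 (from -0.49 to 0.60), so the numbers pair nothing, and with the replicate block the counts against normal were 17 and 38.

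Signs turned mostly at small values. The largest turned values came with arrays matching their sex label or without 1 array. With normexp the turned values were -0.20 (Atp1b2 A_66_P117392), -0.012 and -0.14 (Sat2) and 0.0445 (Fxr2 A_55_P1969166) in carriers against Cre controls. In other comparisons they were -0.11 (Dnah2, Upk2) and 0.19 (Sat2 A_55_P2345425, Cre controls against normal). The deposited table gave -0.27 (Atp1b2 A_55_P2492258) and 0.13 and 0.061 (Fxr2). Fxr2 A_55_P1969166 was 0.069 with quantile normalization, 0.0115 with slide as a block, 0.022 with the sex covariate, 0.0046 with codes averaged and 0.067 with arrays matching their sex label. Sat2 A_51_P498152 was -0.019 with the replicate block. Xaf1 A_55_P1966833 was 0.041 (Upk2) and -0.0087 (Trp53 het) with slide as a block, 0.10 (Upk2) with the sex covariate, and -0.77 (Trp53 het) and 0.90 (driver difference) with arrays matching their sex label, where A_55_P1966838 was -0.45 (Upk2). Without 1 array, carriers against Cre controls ranged from -0.26 to 0.037 (Wrap53), -0.46 to 1.13 and -0.053 to 0.86 (Atp1b2), -0.18 to 0.46 and -0.15 to 0.64 (Sat2), and -0.41 to 0.12 and -0.12 to 0.11 (Fxr2). Xaf1 A_55_P1966833 then ranged from -1.28 to 0.37 (Upk2), -0.37 to 0.45 (Trp53 het), -0.19 to 0.48 (R270H against R172H) and -1.14 to 0.50 (driver difference), and A_55_P1966838 from -0.25 to 0.62 (R270H against R172H). Of the other values, 1477 kept direction and call, 49 lost a call and 11 gained one.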
